A study of Mus musculus with 6 samples.

Results

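The 43 genes described here code for the machinery that copies DNA and for the control of the step from G1 into S phase of the cell cycle. They were picked as a list of names that sets no threshold on a measured value, with earlier results of these data known, and all 43 were found among the 54532 genes of the deposited table and passed the filter, which asked for 1 FPKM or more in the mean of the 6 libraries. FPKM is the number of sequenced fragments on a gene, scaled by the length of the gene and the depth of the library. RNA was sequenced from N2a (Neuro2A) cells, a mouse neuroblastoma cell line, in 3 libraries of cells given the control siRNA si-NC and in 3 of cells given si-circRtn4, an siRNA against the circular RNA circRtn4. The comparison asks how knockdown of circRtn4 changes gene expression. The labels name only a growth medium with serum, whereas the methods of the study describe differentiation with retinoic acid for N2a cells in general, so the values can be of growing or of differentiating cells. All 6 libraries come from 1 cell line, for which the labels give the strain C57BL/6, although N2a is known as a line from a strain A mouse. The labels give replicate numbers 1, 2 and 3 in each group and do not say that these were separate cultures, so the p-values measure the spread between these libraries, which may be technical.

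Before a cell copies its genome, the origin recognition complex (Orc1 and Orc6 are subunits), Cdc6 and Cdt1 load the ring-shaped helicase of Mcm2 to Mcm7 onto the origins in G1, which is called licensing. At the start of S phase, cyclin E with Cdk2 and the kinase Cdc7 with Dbf4 turn the loaded rings into active helicases with Cdc45 and the GINS complex, and DNA polymerases, the clamp Pcna and its loader follow. E2F transcription factors, which are held back by the retinoblastoma protein until D-type and E-type cyclins act, drive many of these genes, so their transcripts are known to rise together at the border of G1 and S. Neuroblastoma cells are derived from the sympathetic lineage and divide in culture, and neuronal differentiation is accompanied by exit from the cell cycle.

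The promoter windows of several members hold the letters to which E2F factors are known to bind. As examples, 2 with them and 1 without are shown because the letters were more frequent in the members than in other promoters. RefSeq promoters (GRCm38.p6) of 300 bases, 250 before and 50 after the transcription start, were at hand for 35 of the 43 members. The letters TTTCCCGC, TTTCGCGC, TTTGCCGC and TTTGGCGC were searched on both strands, and overlapping matches were each counted. They occurred in 34.1% of the 41 promoters of the members, against 2.26% of all 32851 promoters in the table and 4.15% of the 11335 promoters of genes tested. The letters CCAAT were found in 56.1% of the promoters of the members, 37.4% of all promoters and 38.5% of those of genes tested. The letters TTTGAA of the cell cycle homology element, which is known from genes of mitosis, occurred in 12.2%, 17.9% and 11.6%, respectively. By gene, 14 of the 35 members (40.0%) had a match. Matches after the start are counted here, and for members such as Cdt1, Lig1, Mcm3, Pold1 and Pole2 no match lay before it. The median GC content was 60.0% in the promoters of the members, 52.7% in all promoters and 61.3% in those of genes tested. Neither of the promoters listed for Pold2, the member called in the comparison, held E2F letters, and the window at the upstream start is shown. In the following 250 bases before the transcription start, read 5′ to 3′ on the strand of the gene, capitals mark the E2F letters.
Mcm6, chr1:128359706-128359955, minus strand, 3 matches: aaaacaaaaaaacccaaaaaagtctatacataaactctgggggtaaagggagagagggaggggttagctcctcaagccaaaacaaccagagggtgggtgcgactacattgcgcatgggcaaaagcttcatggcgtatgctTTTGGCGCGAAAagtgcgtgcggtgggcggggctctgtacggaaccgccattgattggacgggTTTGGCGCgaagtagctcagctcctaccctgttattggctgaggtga
Mcm5, chr8:75109259-75109508, plus strand, 2 matches: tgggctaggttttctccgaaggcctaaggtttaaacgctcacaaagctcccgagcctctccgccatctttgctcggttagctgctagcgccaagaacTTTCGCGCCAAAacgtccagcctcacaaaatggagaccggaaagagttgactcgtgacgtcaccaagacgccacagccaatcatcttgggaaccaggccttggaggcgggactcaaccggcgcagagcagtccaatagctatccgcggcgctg
Pold2, chr11:5878257-5878506, minus strand, 0 matches: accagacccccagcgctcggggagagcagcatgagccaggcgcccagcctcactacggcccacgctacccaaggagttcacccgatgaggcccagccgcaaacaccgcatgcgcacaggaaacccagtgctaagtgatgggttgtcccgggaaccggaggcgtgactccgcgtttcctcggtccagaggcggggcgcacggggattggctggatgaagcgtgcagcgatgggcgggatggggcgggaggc
A match of letters is a description of these windows and not a measurement of binding.

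Reads recovered from the FPKM values numbered 14100818 to 14748929 per si-NC library and 13541198 to 15122063 per si-circRtn4 library, and a member had between 66 and 4340 of them in a library. Markers of the sympathetic lineage were present, such as Hand2 at 178 to 238 FPKM and Gata3 at 6.59 to 10.5 FPKM over the 6 libraries, and all 12 neuroblastoma markers passed the filter. Of 15 markers of other cell types, 13 were under the filter, and Epcam, Aqp4 and Hba-a1 were at 0 in every library. The summed level of these 15 genes was 7.36 to 9.53 FPKM in si-NC and 8.26 to 12.9 FPKM in si-circRtn4 libraries, most of it from Pdgfrb and Mbp. Pdgfrb was called higher (log2 fold change 0.92, adjusted p = 0.0316 in limma). Of the 12 neuroblastoma markers 4, Phox2a, Th, Dbh and Chga, were called lower, against 4.82% of all genes tested, and 0 higher. In all, 9 of these 12 lay below and 3 above their si-NC level, with log2 fold changes from -2.07 to 0.60. The part of the markers in the results on the members was not tested. Rtn4, the host gene of circRtn4, was at 61.0 to 69.8 FPKM in si-NC and 50.1 to 62.7 FPKM in si-circRtn4 libraries, and these values take linear and circular RNA together, so they do not check the knockdown.

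Every member was expressed in N2a cells of both groups. Means in the si-NC libraries were at least 30 FPKM for 12 members, led by Cdt1 and Pcna, and under 5 FPKM for 5 members, Orc1, Fen1, Gins3, Prim2 and Pola1. In the si-circRtn4 libraries 24 members lay above and 19 below their si-NC level on the log2(FPKM + 1) scale, and the median log2 fold change was 0.012, against 0.002 for all 12749 genes tested. With every library rescaled to the same FPKM sum (TPM), 35 of the 43 members lay above their si-NC level, with a median of 0.098 against 0.082 for all genes. A single short gene, Gm23935, held 20.1% to 20.7% of that sum in si-NC and 13.5% to 18.8% in si-circRtn4 libraries. With Gm23935 left out of the sum, 27 of the 43 members lay above their si-NC level, with a median of 0.031 against 0.021 for all genes. One member, Pold2, rose at an adjusted p under 0.05 in limma, against 4.36% of all genes tested. No member fell in limma or in limma-voom, against 4.82% of all genes in limma and 725 of 12749 in limma-voom. At an unadjusted p under 0.05, 5 members were higher and 0 were lower, where 13.1% of all genes were higher and 12.8% lower. All si-circRtn4 libraries lay above all si-NC libraries for 5 members, Ccne1, Cdt1, Chaf1b, Gins4 and Pold2, and 16.2% of all genes had this order. The opposite order was found for 0 members and 15.5% of all genes. In each of these unpaired counts the share of the members was below that of all genes. In bulk libraries such as these, a change in the share of cells in S phase and a change in RNA per cell cannot be told apart.

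Libraries with the same number moved together, and a second fit that blocks on the replicate number, called the paired fit, is given where it changed a call. In this paired fit 5 members rose at an adjusted p under 0.05, Pold2, Chaf1b, Ccne2, Ccne1 and Gins4, which is 11.6% of the members against 9.29% of all genes tested. None of the members fell, against 9.75% of all genes. The plot of fold changes places the members in order with their 95% intervals from both fits. In the unpaired fit the interval held 0 for 38 of the 43 members, lay within 0.5 of 0 for 24 and within 1 of 0 for all 43. The lowest bound was -0.85 for Cdc6 and the highest 0.92 for Chaf1b, so a change of the size of 1 on the log2(FPKM + 1) scale was outside the interval of each member. This scale understates changes of low genes, so these bounds do not carry over to changes in FPKM itself. Exact permutation tests (two-sided), which give 0.1 at the least with 3 libraries per group, had p = 0.1 for Pold2, Chaf1b, Ccne1, Gins4 and Cdt1, p = 0.2 for Gins2, Pola1 and Ccne2, and p = 0.4 to 1 for the other 11 members described below with every library.

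**Figure D1:**
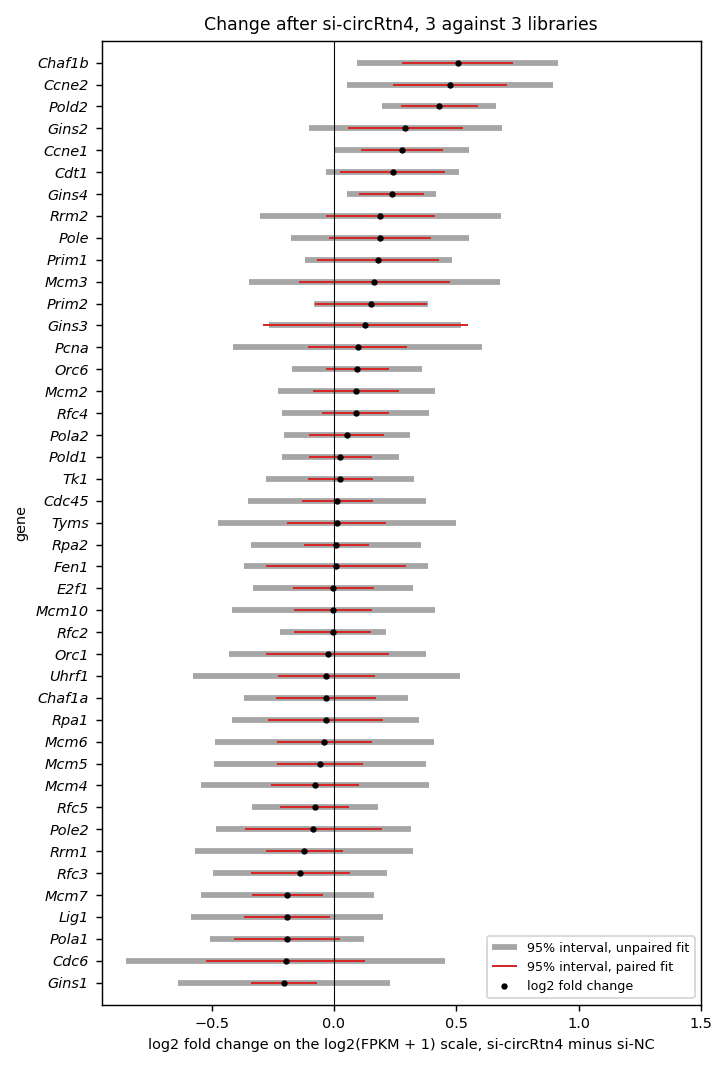
Log2 fold change of the 43 members on the log2(FPKM + 1) scale (x axis, si-circRtn4 minus si-NC) by gene (y axis). Points are estimates, grey bars the 95% intervals of the unpaired fit and red lines those of the paired fit, 3 libraries per group. Chaf1b, Ccne2 and Pold2 stand at the top at 0.51, 0.47 and 0.43, and Gins1 at the bottom at -0.20.

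Origin licensing was measured by 10 members, of which 4 were above and 6 below their si-NC level, and 0 were called in either fit. Cdt1 (chromosome 8, 122568015 to 122573554), the loading factor that is destroyed once S phase has begun, was the most abundant at 56.1, 74.6 and 73.6 FPKM in si-NC and 78.0, 83.7 and 78.1 FPKM in si-circRtn4 libraries 1, 2 and 3. Each si-circRtn4 library was above each si-NC library, by a narrow margin for 2 of the controls. The means were 68.1 ± 10.4 and 80.0 ± 3.27 FPKM (SD, n = 3 each), with a log2 fold change of 0.24 (SE of 0.12, adjusted p = 0.247 in limma).

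Cdc6, the ATPase that works with Cdt1, showed the widest spread of all members. It was at 3.37, 7.73 and 5.99 FPKM in si-NC and 3.75, 6.72 and 3.81 FPKM in si-circRtn4 libraries. The groups overlapped, and the difference between libraries of 1 group was larger than that between the groups. The log2 fold change was -0.20 (SE 0.28, adjusted p = 0.715 in limma), and it was 0.02 without si-NC replicate 2.

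None of the ring subunits was called. Mcm2 was at 27.7, 40.0 and 35.4 FPKM in si-NC and 33.3, 40.1 and 35.6 FPKM in si-circRtn4 libraries, so that libraries 2 and 3 had almost the same level in both groups. Its log2 fold change of 0.09 (SE 0.14, adjusted p = 0.735 in limma) turned to -0.05 without si-NC replicate 1. Over the 6 ring subunits Mcm2 to Mcm7 the log2 fold changes ran from -0.19 (Mcm7) to 0.16 (Mcm3), with a median of -0.05. Mcm7 was lower at each replicate number, and its adjusted p in limma was 0.484 unpaired and 0.0768 paired. The groups also overlapped for Mcm3 at 21.6 to 41.0 FPKM, Mcm4 at 19.9 to 34.0 FPKM, Mcm5 at 25.7 to 41.6 FPKM, Mcm6 at 25.7 to 43.6 FPKM and Mcm7 at 31.1 to 49.9 FPKM over the 6 libraries. The origin subunits Orc1 at 1.54 to 2.79 FPKM and Orc6 at 14.4 to 19.6 FPKM had overlapping groups too.

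Helicase activation was represented by Mcm10, Cdc45 and the 4 GINS subunits. Gins4 (chromosome 8, 23226616 to 23237659) was at 29.6, 32.1 and 30.9 FPKM in si-NC and 35.0, 39.6 and 35.2 FPKM in si-circRtn4 libraries. The groups did not overlap, and the spread within a group was the smallest of all members. The mean was 30.9 ± 1.26 FPKM in si-NC and 36.6 ± 2.59 FPKM in si-circRtn4 (SD, n = 3 each). The log2 fold change was 0.24 (SE 0.08), with an adjusted p of 0.106 in limma and 0.0359 in the paired fit. Over all alternatives its adjusted p lay between 0.0318 and 0.422.

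Gins2 was at 3.95, 6.72 and 6.02 FPKM in si-NC and 6.16, 7.81 and 6.80 FPKM in si-circRtn4 libraries, and 1 control library was above the lowest si-circRtn4 library. Its log2 fold change was 0.29 (SE 0.17, adjusted p = 0.33 in limma). An exon of Gins2 overlaps one of Gse1 on the opposite strand over up to 2758 bases, and Gse1 was at 42.5 FPKM. Whether the counting used strand is not given in the sources used here, so reads of both genes cannot be told apart there. Gins1, of the same 4-subunit complex as Gins4, was lower at each replicate number, with a log2 fold change of -0.20 (adjusted p = 0.547 in limma, 0.0537 paired), so the estimates of the subunits did not share a direction. It was at 9.60 to 16.9 FPKM and Gins3 at 2.42 to 4.31 FPKM over the 6 libraries. Mcm10, which was at 8.09 to 12.8 FPKM, and Cdc45, at 10.2 to 15.1 FPKM, had log2 fold changes of 0.00 and 0.01.

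Primase and polymerases held the 1 member that was called in the unpaired fit. Pold2 (ENSMUSG00000020471, chromosome 11, 5872180 to 5878292, minus strand) codes for the second subunit of DNA polymerase delta, which extends the lagging strand and is also used in repair. Its level was 41.4, 50.8 and 49.9 FPKM in si-NC and 60.7, 69.1 and 62.4 FPKM in si-circRtn4 libraries. All si-circRtn4 libraries were well above all controls, and within both groups the library numbered 1 was the lowest. The means were 47.4 ± 5.16 and 64.0 ± 4.43 FPKM (SD, n = 3 each), and between 1186 and 2038 reads stood behind each value. The log2 fold change was 0.43 (SE 0.10), with an adjusted p of 0.0384 in limma and 0.012 in the paired fit. The call was lost without any 1 of the 6 libraries, where the adjusted p was 0.068 to 0.121 and the log2 fold change 0.34 to 0.48. It was also lost with all detected genes tested (adjusted p = 0.101), and over all alternatives the adjusted p lay between 0.0088 and 0.217.

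None of the other polymerase members was called in either fit. Pold1, which codes for the catalytic subunit of the same enzyme, was at 24.1 to 29.5 FPKM in si-NC and 25.1 to 30.2 FPKM in si-circRtn4 libraries, a log2 fold change of 0.03 (SE 0.10). Pola1, the catalytic subunit of the polymerase that starts each strand, was at 3.56, 5.03 and 4.83 FPKM in si-NC and 3.39, 4.38 and 3.56 FPKM in si-circRtn4 libraries. The groups overlapped, although the si-circRtn4 library was the lower at each number, and the log2 fold change was -0.19 (SE 0.14, adjusted p = 0.428 in limma). The remaining members were Pola2 at 11.9 to 15.6 FPKM, the primase subunits Prim1 at 14.6 to 22.0 FPKM and Prim2 at 3.96 to 5.45 FPKM, and the polymerase epsilon subunits Pole at 4.45 to 7.58 FPKM and Pole2 at 7.29 to 12.5 FPKM. They had log2 fold changes between -0.08 (Pole2) and 0.19 (Pole), with overlapping groups.

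**Figure D2:**
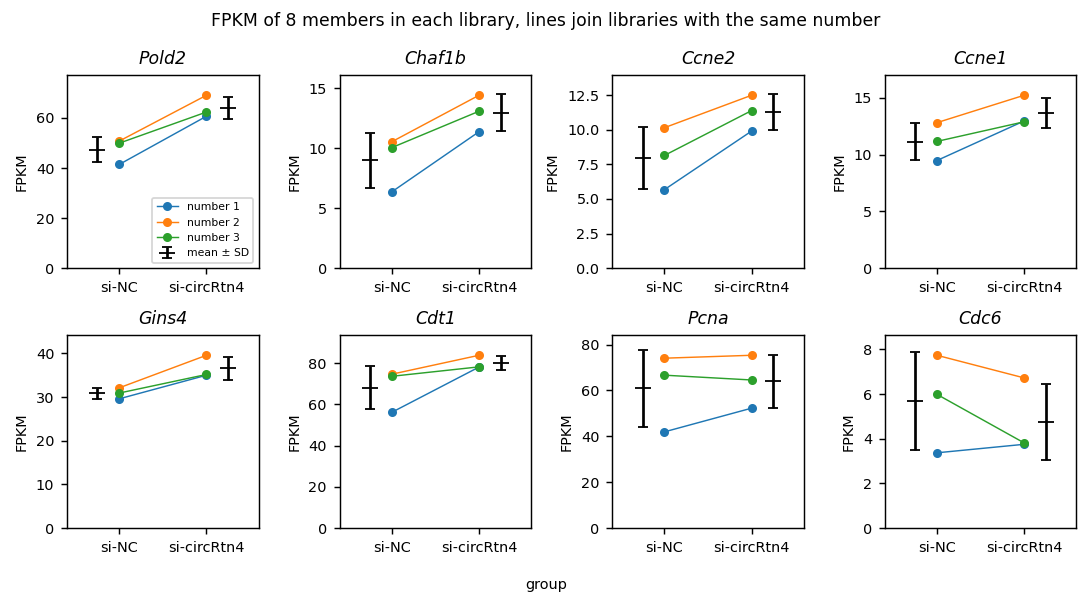
FPKM (y axis, from 0) of 8 members in the si-NC and si-circRtn4 libraries (x axis), with 1 line for each replicate number and the mean ± SD of 3 libraries beside the points. Pold2, Chaf1b, Ccne2, Ccne1, Gins4 and Cdt1 are higher in si-circRtn4 at each number. The lines of Pcna and Cdc6 go both ways, and for these genes library 1 is the lowest in each group.

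The clamp and its loader showed no member past the threshold. Pcna, the ring that holds polymerases on the DNA and a common marker of S phase, was at 42.0, 74.1 and 66.7 FPKM in si-NC and 52.3, 75.3 and 64.6 FPKM in si-circRtn4 libraries. The control library numbered 1 was far below the other 2, and the groups overlapped. The means were 60.9 ± 16.8 and 64.1 ± 11.5 FPKM (SD, n = 3 each), with a log2 fold change of 0.10 (SE 0.22, adjusted p = 0.83 in limma) that became -0.15 without si-NC replicate 1. Rfc3, a loader subunit, was at 10.8, 16.3 and 15.0 FPKM in si-NC and 11.3, 14.1 and 12.2 FPKM in si-circRtn4 libraries, a log2 fold change of -0.14 (SE 0.15, adjusted p = 0.626 in limma). The order of its groups was reversed between number 1 and the other numbers. The other loader subunits Rfc2 at 9.13 to 11.0 FPKM, Rfc4 at 8.60 to 12.0 FPKM and Rfc5 at 11.3 to 14.9 FPKM had log2 fold changes between -0.08 and 0.09. Pcna and Tyms have annotated pseudogenes, with which they can share reads.

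Single-strand binding and the joining of Okazaki fragments, the short pieces of the lagging strand, were covered by Rpa1, Rpa2, Fen1 and Lig1. Lig1, the ligase that seals the pieces, was at 27.4, 42.8 and 39.1 FPKM in si-NC and 26.9, 34.2 and 33.1 FPKM in si-circRtn4 libraries. It was lower at each number and the groups overlapped, with a log2 fold change of -0.19 (SE 0.17, adjusted p = 0.531 in limma). Rpa1, the large subunit of the protein that coats single-stranded DNA, was at 11.6, 18.9 and 15.7 FPKM in si-NC and 13.7, 16.6 and 14.0 FPKM in si-circRtn4 libraries, and its log2 fold change was -0.03 (SE 0.17, adjusted p = 0.927 in limma). Its si-circRtn4 values lay inside the range of the controls. Rpa2, its partner, was at 16.5 to 23.1 FPKM with a log2 fold change of 0.01. Fen1, the nuclease that trims the pieces, was listed at 1.87 to 3.10 FPKM, and its exons overlap the antisense gene Gm10143 over up to 1909 bases.

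No member of nucleotide synthesis was called in either fit. Rrm2, the S-phase subunit of ribonucleotide reductase, was at 16.1, 28.1 and 24.5 FPKM in si-NC and 21.8, 31.9 and 24.1 FPKM in si-circRtn4 libraries, a log2 fold change of 0.19 (SE 0.21, adjusted p = 0.631 in limma). Rrm1, the large subunit of the same enzyme, was at 13.4, 21.8 and 20.2 FPKM in si-NC and 13.4, 18.8 and 17.9 FPKM in si-circRtn4 libraries, a log2 fold change of -0.12 (SE 0.19, adjusted p = 0.746 in limma). Both had overlapping groups, with library 1 the lowest and library 2 the highest. Tyms, the thymidylate synthase, was at 4.61, 8.36 and 7.28 FPKM in si-NC and 5.38, 8.28 and 6.53 FPKM in si-circRtn4 libraries, a log2 fold change of 0.01 (SE 0.21, adjusted p = 0.98 in limma). Tk1, the thymidine kinase of dividing cells, was at 13.9 to 18.2 FPKM in si-NC and 14.4 to 18.8 FPKM in si-circRtn4 libraries.

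Both E-type cyclins, the activators of Cdk2 at the border of G1 and S, were higher at each replicate number. Ccne2 (chromosome 4, 11191351 to 11204779) was at 5.67, 10.1 and 8.14 FPKM in si-NC and 9.90, 12.5 and 11.4 FPKM in si-circRtn4 libraries. The groups overlapped narrowly, since control library 2 was above si-circRtn4 library 1. The log2 fold change was 0.47 (SE 0.18), with an adjusted p of 0.152 in limma and 0.0249 in the paired fit (0.0249 to 0.36 over all alternatives). Ccne1 (chromosome 7, 38097984 to 38107534) was at 9.48, 12.8 and 11.2 FPKM in si-NC and 13.0, 15.2 and 12.9 FPKM in si-circRtn4 libraries. Its groups were separated only narrowly. The log2 fold change was 0.28 (SE 0.12), with an adjusted p of 0.186 in limma and 0.0415 in the paired fit (0.0415 to 0.401 over all alternatives).

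E2f1, the transcription factor of G1/S genes that is also one of their targets, was at 25.4, 36.4 and 33.8 FPKM in si-NC and 28.0, 33.5 and 33.0 FPKM in si-circRtn4 libraries. The means were 31.8 ± 5.73 and 31.5 ± 3.06 FPKM (SD, n = 3 each), and the si-circRtn4 values lay inside the control range. Its log2 fold change of 0.00 (SE 0.14, 95% interval -0.33 to 0.32) had no stable sign over the alternatives.

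Copying of chromatin was represented by Uhrf1, which helps to carry DNA methylation to the new strand, and by Chaf1a and Chaf1b, subunits of the factor that places histones behind the fork. Chaf1b (chromosome 16, 93883901 to 93906115) was at 6.37, 10.5 and 10.1 FPKM in si-NC and 11.4, 14.4 and 13.1 FPKM in si-circRtn4 libraries. All si-circRtn4 libraries were above all controls. The means were 8.99 ± 2.29 and 13.0 ± 1.53 FPKM (SD, n = 3 each), and the log2 fold change, the largest of the members on this scale, was 0.51 (SE 0.18), with an adjusted p of 0.121 in limma and 0.0208 in the paired fit. Over all alternatives the adjusted p lay between 0.0208 and 0.302.

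Chaf1a, the partner of Chaf1b, was at 4.75, 7.35 and 6.26 FPKM in si-NC and 5.39, 6.61 and 5.70 FPKM in si-circRtn4 libraries. These groups overlapped throughout, with a log2 fold change of -0.03 (SE 0.14, adjusted p = 0.919 in limma). The exons of Chaf1a overlap those of Ubxn6 on the opposite strand over up to 2542 bases. Uhrf1 ranged from 32.8 to 61.4 FPKM in si-NC and from 37.2 to 55.2 FPKM in si-circRtn4 libraries, a log2 fold change of -0.03 (SE 0.23). In all, 16 of the 43 members have an exon that overlaps another annotated gene.

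The members varied between libraries of 1 group in a shared order, which was noticed after the values had been seen. Within si-NC the library numbered 1 was the lowest for 43 of the 43 members, where 40.4% of all genes tested had this order, and the library numbered 2 was the highest for 41, where 28.0% had it. Within si-circRtn4 the library numbered 1 was the lowest for 36 members, against 37.0% of all genes, and the library numbered 2 the highest for 41, against 30.9%. All of these held together for 35 members and 6.41% of all genes. The order was not confined to the members. Of the 30 mitosis genes described below, 29 were lowest in library 1 of si-NC and 27 in library 1 of si-circRtn4, 24 and 15 were highest in library 2, and 12 had all of these together. The ratio of library 2 to library 1 was 1.52 at the median in si-NC, from 1.08 for Gins4 to 2.29 for Cdc6. In si-circRtn4 it was 1.27, from 0.903 for Gins3 to 1.79 for Cdc6.

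**Figure D3:**
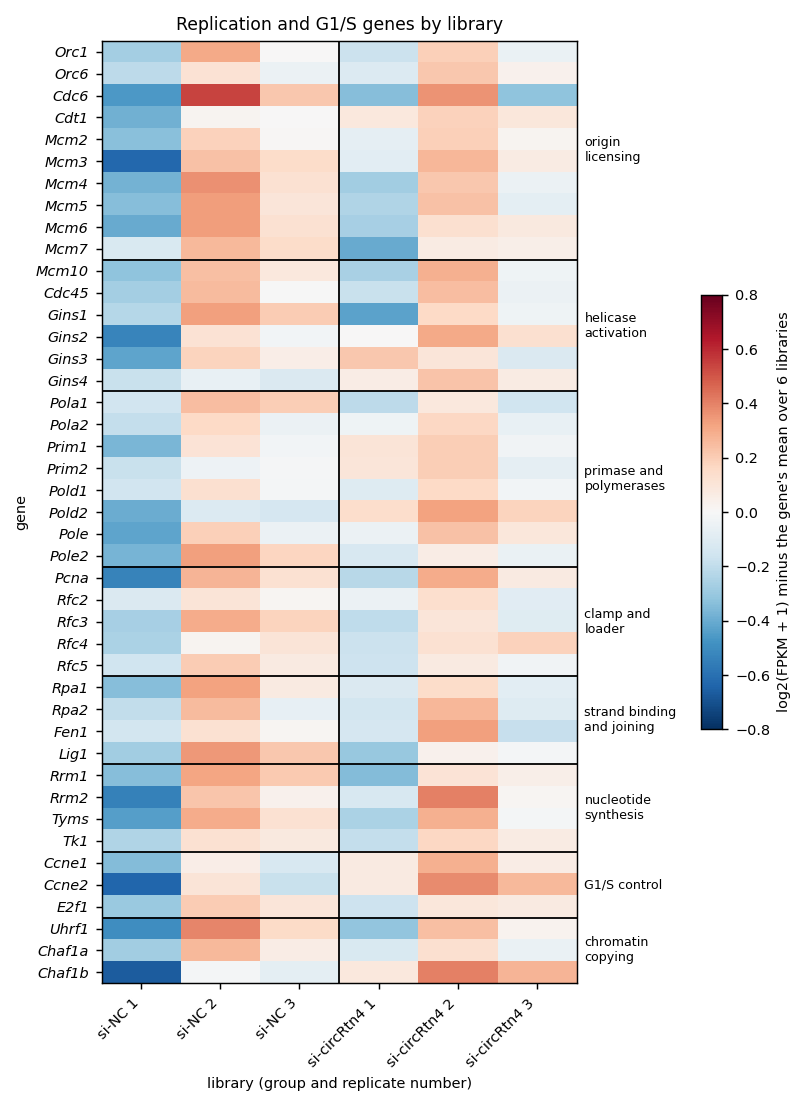
Heat map of the 43 members (y axis, grouped by role) in the 6 libraries (x axis). Color is log2(FPKM + 1) minus the mean of the gene over the 6 libraries, from -0.8 (blue) to 0.8 (red). The column of si-NC 1 is blue for 43 of 43 genes and that of si-circRtn4 2 is red for 43 of 43.

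Summed over the members, the level was 683, 1015 and 916 FPKM in si-NC libraries 1, 2 and 3 and 804, 1020 and 900 FPKM in those of si-circRtn4. Library 1 was the lowest and library 2 the highest in both groups, and the sums of the groups overlapped. Relative to the mean of each gene over the 6 libraries, the median member was at -0.33, 0.22 and 0.06 in si-NC and at -0.13, 0.20 and -0.02 in si-circRtn4 libraries on the log2 scale, whereas the median of all genes stayed within 0.011 of 0. The SD of a member within a group had a median of 0.24 on the log2 scale, against 0.13 over all genes tested and 0.12 over the 10348 genes within the range of the members in mean FPKM. The standard error of the fold change fell from a median of 0.16 to 0.08 with the block, and it was smaller in 43 of 43 members. Nearly all genes had this too, since it was smaller in 12045 of the 12749 genes tested, with medians of 0.106 and 0.076.

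Libraries numbered 1 also held the highest summed level of the markers of other cell types in each group, at 9.53 and 12.9 FPKM, most of which came from Pdgfrb and Mbp. The other 13 markers summed to 2.16, 2.32 and 1.45 FPKM in si-NC and to 2.19, 1.32 and 1.51 FPKM in si-circRtn4 libraries, so that library 1 was not the highest in si-NC without these genes. Libraries numbered 1 also had the highest share of reads on mitochondrial protein-coding genes in each group, at 2.26% and 1.87%. The part of these quantities in the order of the libraries was not tested.

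The difference between the groups was not the same at each number. The median member was higher in si-circRtn4 by 0.14 on the log2 scale at number 1 (37 higher, 6 lower), by 0.01 at number 2 (23 higher, 20 lower) and lower at number 3, at -0.06 (11 higher, 32 lower). A higher level at all 3 numbers was found for 11 members, which were Orc6, Cdt1, Mcm2, Gins2, Gins4, Pold2, Pole, Rfc4, Ccne1, Ccne2 and Chaf1b. A lower level at all 3 was found for 6, which were Mcm7, Gins1, Pola1, Rfc5, Lig1 and Rrm1. Over all 12749 genes tested, 6466 were higher and 6279 lower at number 1, 6428 and 6318 at number 2, and 6265 and 6473 at number 3. The share of all genes with 1 direction at all 3 numbers was not counted, so whether 11 or 6 members is unusual is not known. Leaving out 1 library changed the direction of 27 of the 43 members, a count that was not made for all genes. The median member moved from -0.11 without si-NC replicate 1 to 0.12 without si-NC replicate 2.

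Genes of mitosis, which act after the genome has been copied, were compared as the most similar set. All 30 of the list were tested and all 30 were lower in si-circRtn4 (25 with TPM), with a median log2 fold change of -0.16. Of them 1, Pttg1 (securin), was called lower (3.33%), against 4.82% of all genes tested. Its call stayed only without si-NC replicate 1 when 1 library was left out (adjusted p = 0.0351 to 0.156 in limma). Their median lay at -0.08, 0.23 and 0.16 in si-NC libraries and at -0.23, -0.03 and -0.02 in si-circRtn4 libraries. The paired fit called 10 of the mitosis genes lower (33.3%) and 0 higher, against 9.75% and 9.29% of all genes tested. With TPM 0 were called and the median was -0.07, and with limma-voom 3 were called lower, where 725 of all 12749 genes were. With TPM without Gm23935, 29 of the 30 were lower, the median was -0.14 and 1, Pttg1, was called lower, where 541 of all genes were. At numbers 1, 2 and 3 the median mitosis gene differed by -0.18, -0.24 and -0.19, while the median member differed by 0.14, 0.01 and -0.06. These medians are descriptions, and the difference between both sets was not tested.

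**Figure D4:**
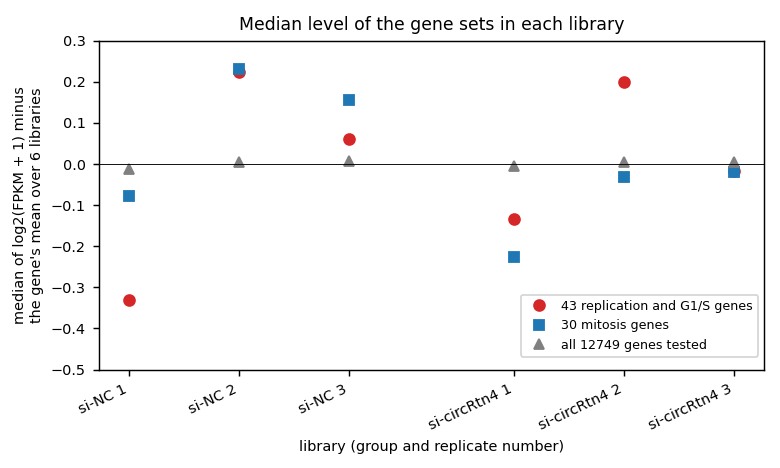
Median of log2(FPKM + 1) minus the mean of each gene over the 6 libraries (y axis) for the 43 members (circles), 30 mitosis genes (squares) and all 12749 genes tested (triangles) in each library (x axis). The members run from -0.33 in si-NC 1 to 0.22 in si-NC 2, the mitosis genes are below 0 in each si-circRtn4 library, and all genes stay near 0.

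Further genes of the same pathway were read from lists written by hand. For the counts of these lists, 4.36% of all genes tested rose and 4.82% fell in the unpaired fit. In the paired fit these shares were 9.29% and 9.75%. Of 36 other genes of the replication fork and origins, 1 rose and 0 fell in the unpaired fit. This gene was Dbf4, the activator of the kinase Cdc7, at 5.58, 6.97 and 6.92 FPKM in si-NC and 9.15, 9.39 and 8.69 FPKM in si-circRtn4 libraries. All si-circRtn4 libraries were higher, with a log2 fold change of 0.43 (SE 0.10, adjusted p = 0.0323 in limma). The paired fit called 4 of the 36 higher (Dbf4, Mtbp, Rpa3 and Dna2) and 3 lower (Timeless, Pole4 and Dnmt1).

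Among 18 other genes of nucleotide synthesis, 2 rose and 1 fell, and each of these 3 had groups that did not overlap. Rrm2b, a ribonucleotide reductase subunit that is induced by p53 and also used outside S phase, was at 3.08, 2.91 and 3.85 FPKM in si-NC and 6.73, 5.40 and 5.20 FPKM in si-circRtn4 libraries (log2 fold change 0.66, SE 0.12, adjusted p = 0.0196 in limma). Dctd, the deaminase that supplies dUMP to Tyms, was at 24.4, 24.5 and 23.1 FPKM in si-NC and 37.1, 35.5 and 34.5 FPKM in si-circRtn4 libraries (0.55, SE 0.07, adjusted p = 0.00478 in limma). Both differences were larger than the spread of either group. Paics, an enzyme of purine synthesis, was at 53.7, 58.0 and 58.7 FPKM in si-NC and 35.2, 38.2 and 41.5 FPKM in si-circRtn4 libraries (-0.56, SE 0.08, adjusted p = 0.01 in limma).

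Upstream of the members, 2 of 24 tested regulators of the G1/S step fell and 0 rose, and Ccnd2 and Cdk6 were under the filter. Both were D-type cyclins, which act with Cdk4 or Cdk6 on the retinoblastoma protein. Ccnd1 was at 79.4, 81.0 and 79.9 FPKM in si-NC and 57.5, 57.2 and 61.0 FPKM in si-circRtn4 libraries (log2 fold change -0.45, SE 0.07, adjusted p = 0.0097 in limma). Ccnd3 was at 8.19, 7.67 and 6.48 FPKM in si-NC and 3.96, 4.92 and 4.39 FPKM in si-circRtn4 libraries (-0.64, SE 0.11, adjusted p = 0.0142 in limma). Neither had overlapping groups, and the library number carried no common order. The paired fit also called Tfdp1, Fbxw7 and Mycn higher. Mycn had the highest log2 fold change of the list in the main fit, at 0.60, and was not called there. It was called higher with TPM, TPM without Gm23935, limma-voom, quantile normalization and the filter of 5 FPKM. Tfdp1 was called higher with TPM, limma-voom and quantile normalization. Neither was called with all detected genes, a pseudocount of 0.1 or in any fit without 1 library.

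Of the 5 CDK inhibitors tested of 7 listed, 1 rose and 0 fell. Cdkn1a (p21), an inhibitor of Cdk2 and a target of p53, was at 19.3, 19.8 and 20.0 FPKM in si-NC and 23.9, 30.2 and 25.9 FPKM in si-circRtn4 libraries (log2 fold change 0.41, SE 0.09, adjusted p = 0.0353 in limma). The controls were close together and every si-circRtn4 library was above them. Leaving out any 1 library ended the call of Dbf4 (adjusted p = 0.0506 to 0.105 in limma), and that of Cdkn1a stayed only without si-circRtn4 replicate 1 (0.0401 to 0.109). The call of Rrm2b stayed only without si-NC replicate 3 or si-circRtn4 replicate 3 (0.0269 to 0.0728). Without si-NC replicate 2, Ccnd1 and Ccnd3 were at 0.0514 and 0.0593 and were no longer called, whereas Dctd and Paics stayed called without each library. With all detected genes tested, Dbf4, Rrm2b, Ccnd3, Cdkn1a and Pttg1 were not called, and Dctd, Paics and Ccnd1 were.

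**Figure D5:**
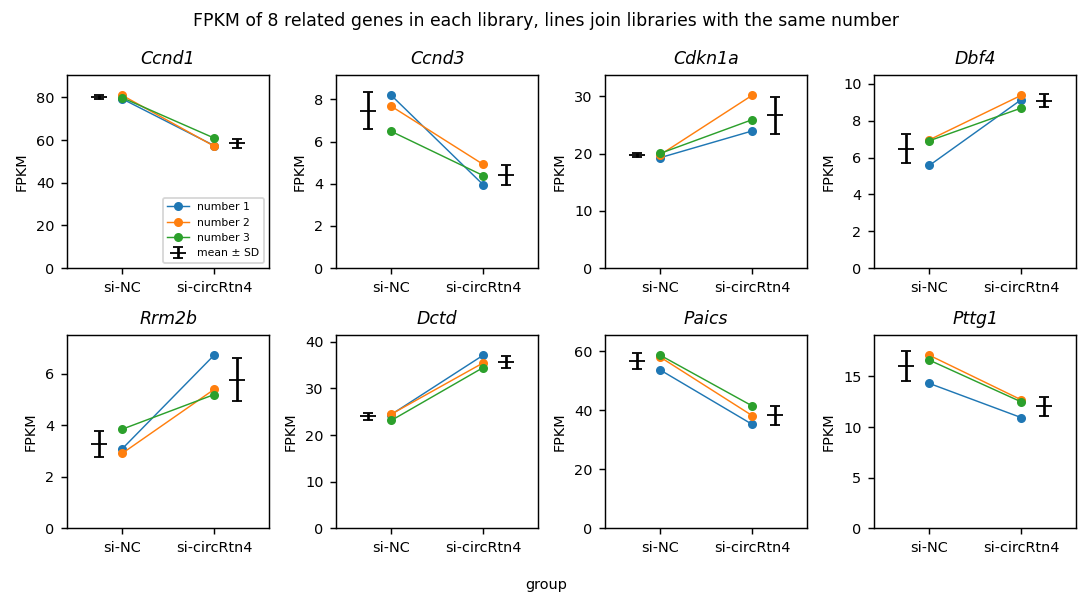
FPKM (y axis, from 0) of 8 related genes that are not members in the si-NC and si-circRtn4 libraries (x axis), with 1 line for each replicate number and the mean ± SD of 3 libraries beside the points. Ccnd1, Ccnd3, Paics and Pttg1 are lower and Cdkn1a, Dbf4, Rrm2b and Dctd higher in si-circRtn4 at each number.

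The siRNA itself and miR-24-3p, the microRNA that circRtn4 is studied for, have few seed sites in the members. The listed strand of si-circRtn4 and the mature microRNA are shown to mark these letters, with the site for the seed of the guide in capitals in the first, on the assumption that the guide is the complement of the listed strand, and bases 2 to 8 in capitals in the second.
si-circRtn4: cttcagatgagACCCTTTt
miR-24-3p: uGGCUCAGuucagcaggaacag
The guide site ACCCTTT was present in the longest annotated 3′ UTR (GENCODE M21, GRCm38) of 3 of 43 members (6.98%), against 12.5% of 10666 genes tested. The site CTGAGCC of miR-24-3p was present in 4 members (9.30%), Cdc6, Mcm2, Gins2 and Chaf1a, against 19.6%. The UTRs of the members were shorter, with a median of 531 bases against 1170. Capitals mark the guide site in the 3 members that hold it.
Gins2, chr8:120578730-120578736, minus strand: ggagcctggaACCCTTTgtttcatgca
Pola1, chrX:93305465-93305471, minus strand: tgtacaccaaACCCTTTcctaagtatc
Rfc2, chr5:134601610-134601616, plus strand: ccaagtcacaACCCTTTccccatgtct
The log2 fold changes of these 3 genes were 0.29, -0.19 and 0.00, and none of them was called in either fit. Over the 10666 genes tested, the median was -0.048 with the guide site and 0.007 without it. This difference was not tested, and 3 members are too few to show whether it holds for them.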

How the data were processed

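The authors deposited 1 table of FPKM values per gene and library, and 6 columns of other samples in it were not used. The labels list Bowtie 0.12.2 and the builds mm8 and mm9, but 98.3% of the 54532 genes have the coordinates of GENCODE M21 (GRCm38). The counting tool and strand setting are not given in the sources used here. FPKM times gene length gave whole reads for 100% of the values (tolerance 0.01 reads).

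Members and lists were chosen with earlier results of these data known. The 12749 genes with 1 FPKM or more in the mean were tested as log2(FPKM + 1), which understates changes of low genes, with limma 3.58.1 in R 4.3.3 (lmFit, eBayes with trend), two-sided, and Benjamini-Hochberg adjustment over all of them at 0.05. Members described with every library were those called, the 2 with the largest absolute change per role, and 9 well-known genes. From the other lists, called genes were named. The choice of Pold1, Mcm7 and Gins1 for fold changes in the text came after their values were seen.

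Deviations from group means correlated at 0.331, 0.190 and 0.226 between libraries of the same number, from the data alone, and at most 0.00913 otherwise. Such deviations cancel out within a group, so positive values for the same number force negative values among the others. The contrast with the other values is therefore not separate evidence of pairing. For the positive values at the same number, the numbers were treated as pairs in a second fit. Alternatives were another pseudocount (0.1), filter, scaling or test (limma-voom on recovered reads), and fits without libraries. On simulated data with a dispersion of 0.01 and 194 genes changed by a fold of 2 among 12798 for this comparison, limma recovered 88.1% and 5.5% of its calls were false. The members spread more within a group (median SD 0.24 on the log2 scale) than all genes (0.13), so this recovery does not apply to them.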

Additional observations from a re-analysis of the deposited data

How the results depend on the processing

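Of all genes tested, 1171 were called, with 47.5% of them higher. Testing all detected genes gave 471 calls and the replicate block 2428. Leaving out 1 library gave 380 to 826, and leaving out both libraries of number 1, 2 or 3, an alternative chosen after seeing the data, gave 321, 17 and 260. Rescaling to TPM moved the split to 977 higher and 400 lower (71.0% higher) and the median of all genes to 0.08. With Gm23935 left out of the sum, the split was 593 higher and 541 lower (52.3% higher) and the median of all genes 0.02. Members called higher numbered 2 with TPM (Gins4 and Pold2), 2 with limma-voom (Pold2 and Chaf1b), 5 with the replicate block, 0 with all detected genes, 0 without any 1 library and 0 in each fit without both libraries of 1 number. Over all genes, 977 were called higher with TPM, 902 with limma-voom, 1185 with the block and 210 with all detected genes. Without 1 library 163 to 407 were, and without both libraries of number 1, 2 or 3 139, 3 and 119 were. The count of members called lower was 0 under every alternative run, where 14 to 1243 of all genes were called lower. The median member ranged from -0.11 to 0.12 without 1 library, less than the SD of 0.23 between libraries of 1 group. The block changed no call of a member other than the 4 given with the results.

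Small fold changes changed sign. Without both libraries numbered 1, Pcna was at -0.011 and Tyms at -0.074. Rpa1 was at 0.053 with TPM, 0.037 without both libraries numbered 2 and 0.026 without both numbered 3, and Chaf1a was at 0.047, 0.018 and 0.0093 in the same settings. E2f1 was at 0.018 with TPM without Gm23935, 0.087 with TPM, 0.022 with limma-voom, 0.0097 after quantile normalization, 0.053 without both numbered 2 and 0.010 without both numbered 3. Without 1 library the ranges were -0.48 to 0.022 for Cdc6, -0.052 to 0.21 for Mcm2, -0.15 to 0.26 for Pcna, -0.21 to 0.12 for Rpa1, -0.32 to 0.019 for Rrm1, -0.034 to 0.35 for Rrm2, -0.20 to 0.16 for Tyms, -0.15 to 0.098 for E2f1 and -0.18 to 0.091 for Chaf1a. Over the single members described in full, 276 values kept their direction and side of the threshold, 30 changed sign, 10 lost a call and 6 gained one, and the cause was not tested. Counting error, with at least 66 reads for a member in a library, was not modelled on its own, and only the limma-voom fit weighted values by their read level.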
